A study of Cucumis sativus with 9 samples.

Results

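Genes of 4 protein families of the cell division cycle were followed in cucumber leaves through 6 h at 42 °C. A gene was included where the Pfam domains listed for it in the deposited tables contained the cyclin N-terminal domain (PF00134), the kinesin motor domain (PF00225), the tubulin/FtsZ domain (PF00091) or the MCM domain (PF00493). This rule, which used no expression value, found 104 of the 24880 genes, namely 31 cyclins, 51 kinesins, 16 genes of the tubulin/FtsZ family and 6 MCM genes. Chromosomes 1 to 7 held 103 of them and an unplaced scaffold held 1. Genes are given by their identifiers, since the files pair these with domains and not with gene names, and no gene, promoter or protein sequence of the members was used here.

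Cyclins bind and activate cyclin-dependent kinases, and different cyclins drive entry into DNA synthesis and into mitosis. The cyclins of plant A, B and D types carry a C-terminal cyclin domain beside the N-terminal one, while several cyclins that act in transcription do not drive the cell cycle at all. The MCM proteins form the ring-shaped helicase that opens DNA ahead of the replication fork. Tubulins are the subunits of microtubules, and kinesins are motors that move along microtubules in the spindle, in the phragmoplast that builds the new plant cell wall, and in cells that do not divide. FtsZ is the relative of tubulin that forms the division ring of chloroplasts. In a young leaf, cells still in division are mixed with expanding and mature cells.

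The plants were 3-week-old seedlings of the inbred line 9930 ('Chinese long'), raised at 25 °C by day and 18 °C by night with 16 h of light. HT0h leaves were taken untreated as the control, HT3h leaves after 3 h at 42 °C and HT6h leaves after 6 h at 42 °C, with 3 biological replicates each. How many plants went into a replicate is not given in the sources used here. Leaves kept at the growth temperature for 3 or 6 h were not among the groups, and the effects of heat and of the hour of sampling cannot be told apart. The study set aside HT3h_2 and HT6h_2 for poor uniformity, and the tests below rest on the other 7 libraries (3, 2 and 2), with the values of all 9 libraries given beside them. Expression is in FPKM, fragment counts per gene divided by gene length and library depth, and the libraries held 18972139 to 22942239 fragments on genes. Since a leaf library pools many cell types, a lower level can mean fewer cells of a type or less RNA per cell, and these cannot be told apart.

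Summed over 32 genes with the Hsp20 domain, which is found in small heat shock proteins, the FPKM was 333 to 384 in HT0h, 1478 to 1789 in HT3h and 697 to 797 in HT6h. The leaf label was met by high levels of 20 genes with the chlorophyll a/b binding domain, whose summed FPKM was 57580 to 64751 in HT0h. That sum differed between heated libraries of 1 group, with 66871 in HT3h_1, 52959 in HT3h_2 and 22769 in HT3h_3, and with 19491, 24189 and 10556 in HT6h_1 to HT6h_3. Its part in the results was not tested.

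Of the 103 genes that could be tested, 35 were lower and 7 were higher at 3 h than at 0 h. A gene was called lower or higher where limma's Benjamini-Hochberg adjusted p over all 19416 genes tested was 0.05 or less and the log2 fold change was at least 1 in size. The lower genes were 34.0% of the cell division genes against 8.29% of all genes, and the higher ones were 6.80% against 10.0% of all genes. At 6 h, 43 genes were lower and 7 were higher, or 41.7% and 6.80%, against 10.0% and 12.2% of all genes. Both comparisons use the same HT0h libraries, so their values are given side by side and are not independent of each other. The median log2 fold change of the 103 genes was -0.63 at 3 h and -0.71 at 6 h, beside -0.02 and -0.0016 over all genes.

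With all 9 libraries, 39 genes were lower and 7 higher at 3 h (9.57% and 10.9% of all genes), and 44 were lower and 7 higher at 6 h (10.1% and 12.3% of all genes). All 35 of the lower genes of the 7 libraries were among the 39 at 3 h, and 42 of the 43 were among the 44 at 6 h. At 3 h and at 6 h the 7 higher genes were those called in the 7 libraries. The 1 gene without a test, a kinesin whose model has no CsaV3 identifier, stayed between 0 and 0.236 FPKM in all 9 libraries.

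**Figure D1:**
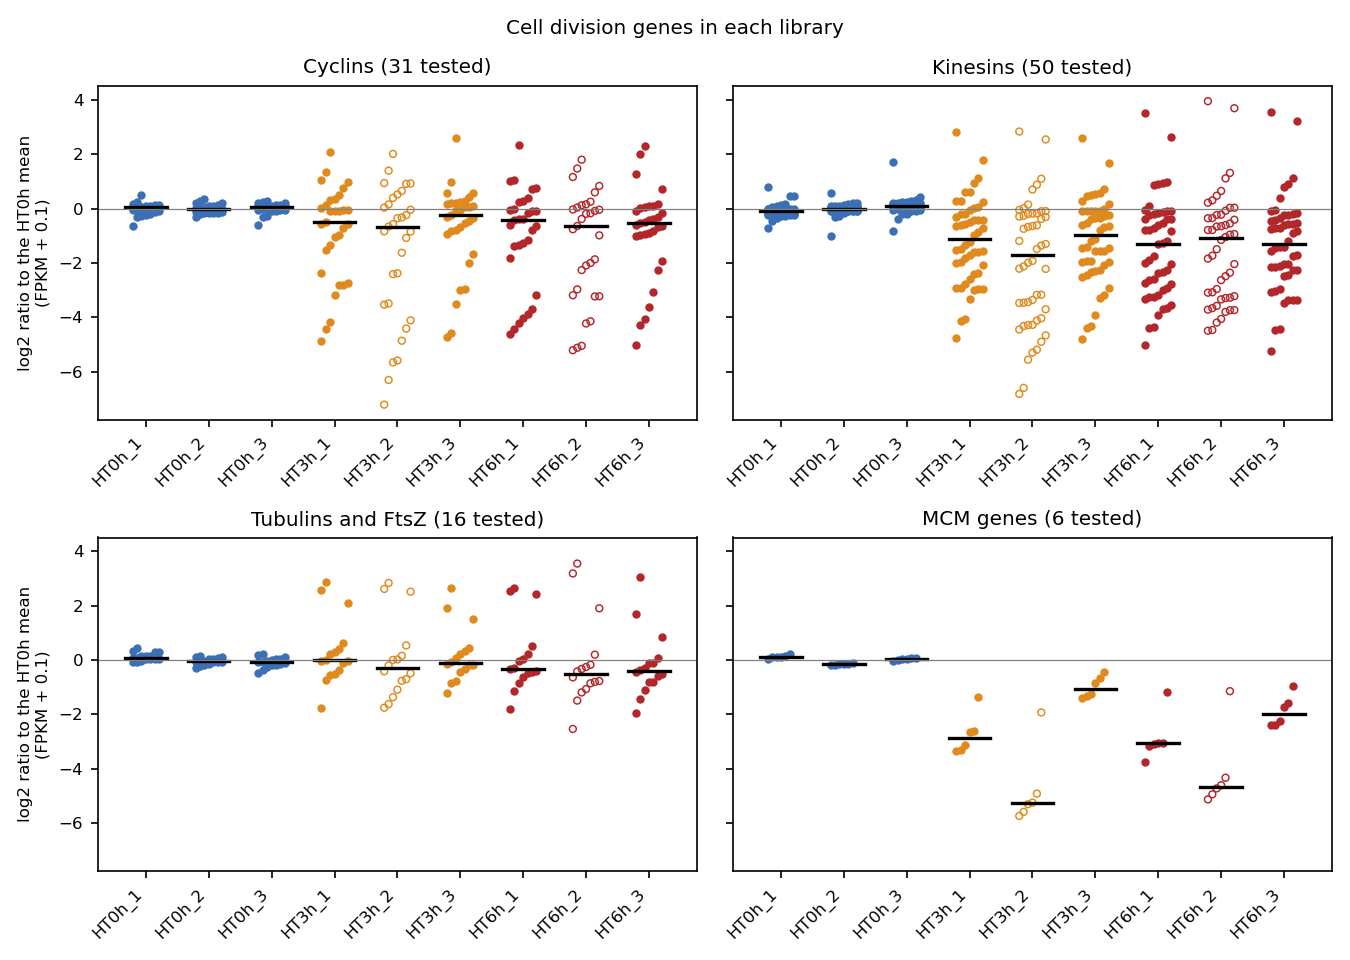
The log2 ratio of each tested gene to its HT0h mean, computed as log2(FPKM + 0.1), is shown for the 9 libraries in 4 panels, 1 per family. Each point is a gene, the black bars are medians over genes, filled points are the 7 libraries of the tests and open points are HT3h_2 and HT6h_2. The kinesin medians lie between -0.96 and -1.70 in all 6 heated libraries, the tubulin medians between -0.01 and -0.52, and the MCM medians spread from -1.05 in HT3h_3 to -5.27 in HT3h_2.

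Cyclins were counted by their domains, beside 8.29% of all genes lower and 10.0% higher at 3 h, and 10.0% and 12.2% at 6 h. Of the 22 cyclins with both the N-terminal domain and the C-terminal domain PF02984, 7 were lower and 1 was higher at 3 h, and 9 were lower and 1 was higher at 6 h. Without HT3h_3, 2 of them were higher at 3 h, and without HT0h_2 or HT6h_3, 2 were higher at 6 h. Their median log2 fold changes were -0.70 and -0.67, and the latter was -1.02 without HT6h_3 and -1.21 with all 9 libraries. None of the 8 cyclins with the N-terminal domain alone was lower at either time and 1 was higher at both. Without HT3h_1 none of these 8 was higher at 3 h, without HT6h_1 2 were higher at 6 h, and without HT6h_3 1 was lower at 6 h. Their median log2 fold changes of 0.05 and 0.02 had no stable sign, as single libraries left out gave -0.04 to 0.14 at 3 h and -0.03 to 0.08 at 6 h. Whether these subclasses differ was not tested. CsaV3_6G042870, the only cyclin with the C-terminal domain PF16899, a domain found in cyclin H of yeast and humans, was not called and had means of 5.63, 2.98 and 3.59 FPKM at 0, 3 and 6 h. Without HT3h_3, which leaves 1 HT3h library, its log2 change at 3 h was -1.04.

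The deepest fall of a cyclin was that of CsaV3_4G029350 (chromosome 4, 18838613 to 18841656, minus strand), a cyclin with both domains. It stood at 84.9, 97.9 and 114 FPKM in the HT0h libraries, at 4.42 and 3.61 in HT3h_1 and HT3h_3, and at 3.93 and 2.96 in HT6h_1 and HT6h_3. The heated libraries kept 4.06% of the HT0h mean at 3 h and 3.49% at 6 h. Heated and control leaves did not overlap, but genes named here for a large rise or fall were picked for that. For such genes the lack of overlap is therefore no further support. On the log2 scale its change was -4.58 ± 0.19 (SE) at 3 h, limma adjusted p 3.9e-05, and -4.81 ± 0.19 at 6 h, limma adjusted p 3.1e-05. HT3h_2 and HT6h_2 stood at 0.563 and 5.45 FPKM, also far below every HT0h library.

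CsaV3_6G038710 (chromosome 6, 22161949 to 22165183, plus strand) followed with 47.9, 46.5 and 51.2 FPKM in HT0h, 2.59 and 1.92 in HT3h, and 2.54 and 2.39 in HT6h. Its log2 change was -4.38 ± 0.17 at 3 h and -4.24 ± 0.17 at 6 h (limma adjusted p 2.9e-05 and 3.2e-05). CsaV3_4G037240 fell from a mean of 80.0 FPKM at 0 h to 7.89 at 3 h and 4.73 at 6 h, with log2 changes of -3.33 ± 0.14 and -4.05 ± 0.14 (limma adjusted p 4.2e-05 and 2.0e-05). Over the 19 alternatives its change was -4.32 to -3.17 at 3 h and -4.10 to -3.78 at 6 h. Which time had the deeper fall thus depended on the alternative. Among the 7 libraries of the tests, the heated libraries of a time lay close together in all 3 genes, compared with their distance from HT0h.

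The heated libraries of CsaV3_2G026360, the other cyclin among the 4 largest falls, lay farther apart. From 51.0, 42.3 and 48.6 FPKM in HT0h it dropped to 1.502 in HT3h_1 and 5.81 in HT3h_3, and to 2.08 in HT6h_1 and 5.52 in HT6h_3. The log2 changes of -3.94 and -3.76 carried a standard error of 0.58 each (limma adjusted p 0.0031 at both times). The remaining lower cyclins at both times were CsaV3_6G047810 with means of 31.5, 4.26 and 2.40 FPKM, CsaV3_7G023020 with 19.8, 3.77 and 3.08 FPKM and CsaV3_7G008040 with 7.46, 1.62 and 1.14 FPKM. The call of CsaV3_7G008040 at 3 h was lost without any 1 of HT0h_1, HT0h_2, HT0h_3 or HT3h_1 (limma adjusted p 0.071, 0.062, 0.071 and 0.13).

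Another 2 cyclins with the same domains were called lower at 6 h alone. CsaV3_4G000140 had means of 16.8, 10.2 and 7.30 FPKM and missed the fold threshold without HT6h_1, where its log2 change fell just short of 1 in size (limma adjusted p 0.042). CsaV3_3G018270, among the 3 cyclins of highest mean, stood at 111, 108 and 108 FPKM in HT0h but at 38.1 and 92.4 FPKM in HT3h_1 and HT3h_3, and at 30.8 and 56.2 FPKM in HT6h_1 and HT6h_3. Its log2 change at 6 h was -1.39 ± 0.39, with a limma adjusted p of 0.028 that rose to 0.071, 0.070, 0.070 and 0.18 without HT0h_1, HT0h_2, HT0h_3 and HT6h_1 in turn and to 0.083 with all 9 libraries. The call at 6 h was also lost when scaled per counted fragment, by quantiles and with no mean-variance trend. Without HT3h_3, which leaves 1 HT3h library, the log2 change of this gene at 3 h was -1.51. In HT3h_2 and HT6h_2 this gene stood at 9.62 and 2.85 FPKM.

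Against this, 2 cyclins rose. CsaV3_2G030100 (chromosome 2, 19704671 to 19708523, minus strand), which has both cyclin domains, went from 5.61, 6.23 and 4.31 FPKM in HT0h to 23.0 and 32.9 in HT3h and 27.2 and 26.4 in HT6h. It was 5.19-fold higher at 3 h and 4.99-fold higher at 6 h, with log2 changes of 2.35 ± 0.22 and 2.31 ± 0.22 (limma adjusted p 0.00064 and 0.00053). CsaV3_6G038250, which has the N-terminal domain alone, went from 56.5, 54.2 and 52.8 FPKM to 138 and 107 in HT3h and 112 and 130 in HT6h. All heated libraries lay above all HT0h libraries for both genes, as the rule for named genes required. The log2 changes of CsaV3_6G038250 were 1.16 ± 0.15 and 1.15 ± 0.15 (limma adjusted p 0.0022 and 0.0018). Without HT3h_1 its change at 3 h was 0.97 and so under the fold threshold.

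The count of lower cyclins at 3 h was 11 without HT3h_3, in place of 7, and the count of higher cyclins was 1 without HT3h_1, in place of 2. CsaV3_6G012330, also among the 3 cyclins of highest mean, was not called, with 79.1, 80.0 and 83.4 FPKM in HT0h, 115 and 84.5 in HT3h, and 76.6 and 62.2 in HT6h. Its log2 changes were 0.29 ± 0.17 and -0.23 ± 0.17 (limma adjusted p 0.24 and 0.34).

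**Figure D2:**
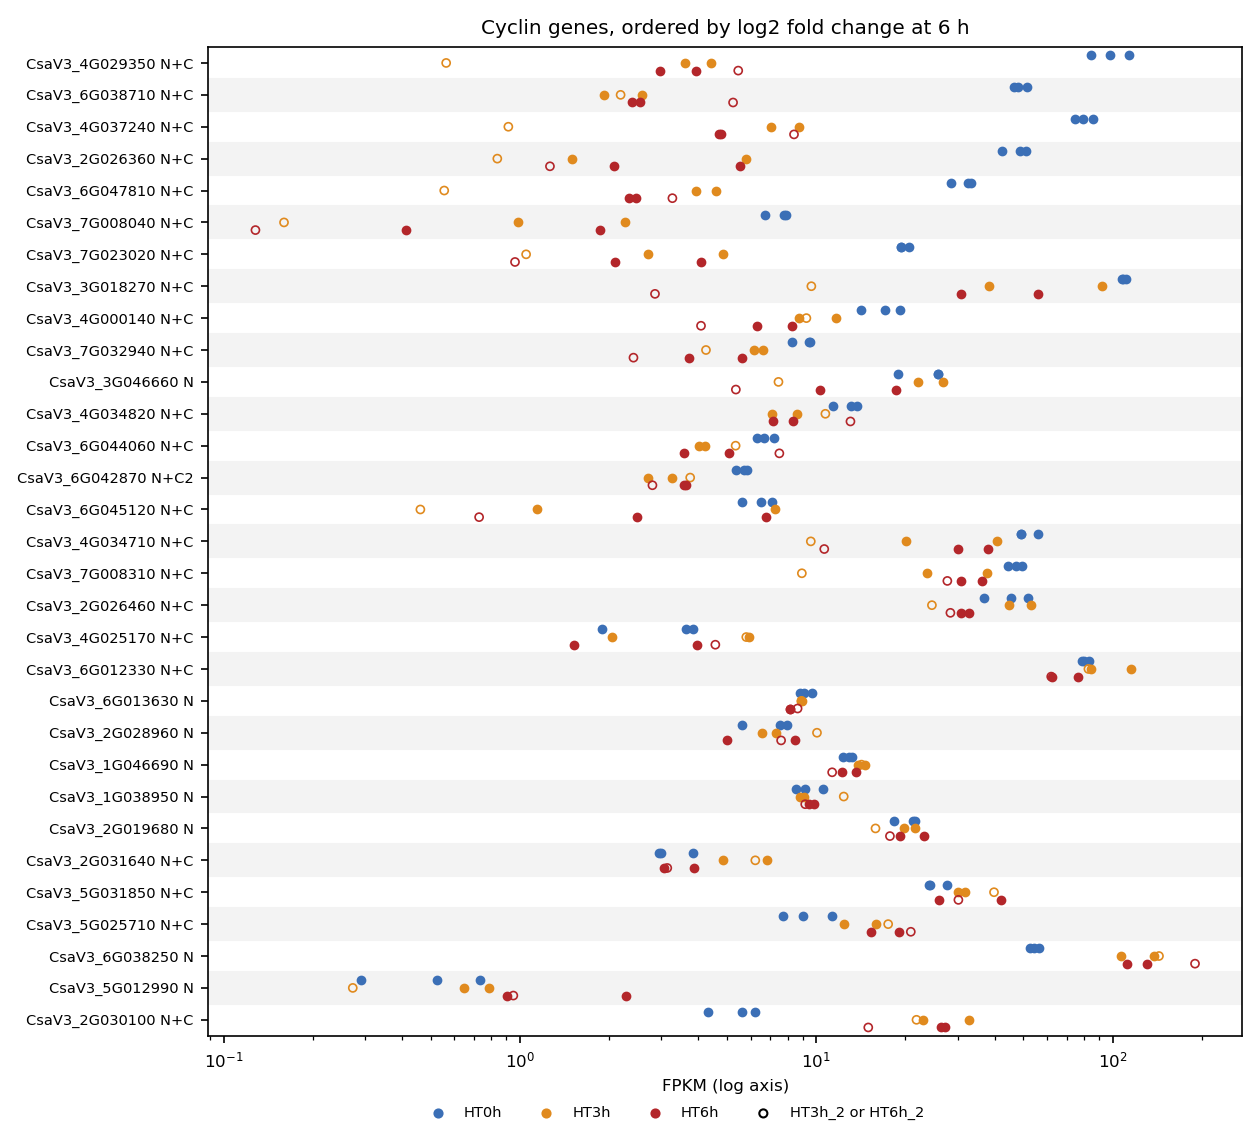
Each row is 1 of the 31 cyclin genes, each point is the FPKM of a library on a log axis, and rows run from the lowest to the highest log2 fold change at 6 h. N marks the N-terminal domain, C the domain PF02984 and C2 the domain PF16899. In the upper 7 rows the heated libraries lie well to the left of the HT0h libraries, and all 7 are genes with both domains.

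Kinesins formed the largest group that fell. At 3 h 24 of the 50 tested were lower and 2 were higher, and at 6 h 25 were lower and 2 were higher, with median log2 fold changes of -1.09 and -1.26. The shares of all genes were 8.29% lower and 10.0% higher at 3 h, and 10.0% and 12.2% at 6 h. Leaving out single libraries gave 23 to 24 lower kinesins at 3 h and 23 to 26 at 6 h, and 22 and 23 of them were lower under all 19 alternatives at 3 h and 6 h. By the domains listed beside the motor, both kinesins with PF06548, all 3 with PF12711 and both with the helix-hairpin-helix domain PF12836 were lower at both times. The last of these domains is also found in human Kid, a kinesin of the mitotic spindle that binds chromosomes. Among 5 kinesins with a calponin homology domain (PF00307), which is known from actin-binding proteins, 2 were lower at 3 h and 3 at 6 h. Of 27 with no other domain listed, 11 and 12 were lower.

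The largest fall of any cell division gene at 6 h was that of CsaV3_1G006890 (chromosome 1, 4380893 to 4384939, plus strand), a kinesin with the domain PF11995 (DUF3490), which occurs in the NACK kinesins of the tobacco phragmoplast. It had 32.4, 31.8 and 35.9 FPKM in HT0h, 1.14 and 1.57 in HT3h, and 0.936 and 0.792 in HT6h. Heated leaves thus kept 4.07% of the HT0h mean at 3 h and 2.59% at 6 h, without overlap, as the rule for named genes required. Its log2 changes were -4.54 ± 0.21 and -5.12 ± 0.21 (limma adjusted p 5.8e-05 and 3.3e-05). HT3h_2 and HT6h_2, which were not in the test, stood at 0.609 and 1.73 FPKM.

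PF11995 did not mark a common direction. A second gene with this domain, CsaV3_5G027690, was lower with means of 14.6, 5.54 and 4.62 FPKM, and CsaV3_4G005820 was not called with 20.6, 20.2 and 12.0 FPKM. CsaV3_7G000390, among the 3 kinesins of highest mean, stood at 20.8, 21.1 and 21.4 FPKM in HT0h, 40.4 and 35.1 in HT3h and 41.7 and 39.3 in HT6h. All of its heated libraries were above all HT0h libraries, and its log2 changes of 0.83 ± 0.12 and 0.93 ± 0.12 (limma adjusted p 0.0028 and 0.0015) missed the fold threshold of 1. The last of the 5, CsaV3_2G029280, was at or under 0.454 FPKM in all 9 libraries and was not called.

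CsaV3_2G012640, with no other domain listed, went from 22.2, 22.3 and 23.5 FPKM in HT0h to 1.20 and 0.730 in HT3h and 0.989 and 0.919 in HT6h. Its log2 changes were -4.45 ± 0.25 and -4.43 ± 0.25 (limma adjusted p 9.2e-05 and 8.8e-05). For CsaV3_3G004460, 1 of the 2 with PF06548, the values were 32.1, 32.0 and 37.1 FPKM in HT0h, 1.92 and 1.497 in HT3h, and 1.56 and 1.48 in HT6h, with changes of -4.23 ± 0.19 and -4.38 ± 0.19 (limma adjusted p 4.5e-05 and 3.6e-05). Neither gene had heated and control libraries that overlapped, as the rule for named genes required. CsaV3_3G034910, which carries the helix-hairpin-helix domain, fell from a mean of 12.3 to 1.12 and 1.24 FPKM, by 3.43 and 3.23 on the log2 scale (SE 0.33, limma adjusted p 0.00076 and 0.00077). CsaV3_2G005260 fell from 20.9 to 2.32 and 1.63 FPKM, by 3.12 and 3.62 on the log2 scale (SE 0.24, limma adjusted p 0.00033 and 0.00014).

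Other kinesins stayed near their HT0h level. CsaV3_6G045040, the kinesin of highest mean, had 33.2, 36.4 and 35.1 FPKM in HT0h, 35.8 and 27.4 in HT3h, and 32.4 and 26.3 in HT6h, with log2 changes of -0.15 ± 0.16 and -0.26 ± 0.16 (limma adjusted p 0.50 and 0.25). Neither of the 2 kinesins with a RING finger domain (PF13920) and not the 1 with armadillo repeats (PF00514), as in the ARK kinesins of Arabidopsis, was called. The latter, CsaV3_6G036700, had means of 9.76, 9.75 and 8.30 FPKM. Of the 2 genes with MyTH4 and FERM domains, as in the calmodulin-binding kinesin KCBP of Arabidopsis trichomes, a model without a CsaV3 identifier was not called (3.99, 3.12 and 3.17 FPKM). The other, CsaV3_UNG147160, was lower at 3 h alone, with 1.92, 1.09 and 0.571 FPKM in HT0h, 0.127 and 0.119 in HT3h and 1.00 and 0.172 in HT6h, and its call at 3 h was lost without any 1 of HT0h_1, HT0h_2, HT3h_1 or HT3h_3 (limma adjusted p 0.12, 0.097, 0.11 and 0.11).

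Both kinesins that rose had no other domain listed and were low in the control leaves. The first, a gene model without a CsaV3 identifier (chromosome 1, 19240975 to 19243380, minus strand), had 1.27, 0.734 and 0.778 FPKM in HT0h, 6.94 and 5.93 in HT3h, and 11.2 and 11.5 in HT6h. It was 6.94-fold higher at 3 h and 12.3-fold higher at 6 h, with log2 changes of 2.70 ± 0.28 and 3.52 ± 0.28 (limma adjusted p 0.00091 and 0.00030). Its heated libraries did not overlap with HT0h, as the rule for named genes required. CsaV3_3G039730 went from 0.280, 0.310 and 0.447 FPKM to 0.858 and 1.297 in HT3h and 2.65 and 4.03 in HT6h, and its HT0h values rested on 27, 30 and 42 fragments. This gene's change of 1.39 ± 0.38 at 3 h had a limma adjusted p of 0.029 and was not called without HT0h_1, HT0h_2 or HT3h_3 (limma adjusted p 0.080, 0.076 and 0.12), while its change at 6 h was 2.94 ± 0.38 (limma adjusted p 0.0016).

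CsaV3_4G030980, the last of the kinesins of highest mean, stood at 23.7, 24.9 and 22.3 FPKM in HT0h, 36.2 and 34.9 in HT3h and 43.1 and 41.2 in HT6h. Every heated library was above every HT0h library, at log2 changes of 0.59 ± 0.11 and 0.83 ± 0.11 (limma adjusted p 0.0083 and 0.0019), which are under the fold threshold. Scaled per counted fragment, this gene and CsaV3_7G000390 were called higher at 6 h, with log2 changes of 1.03 and 1.13.

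**Figure D3:**
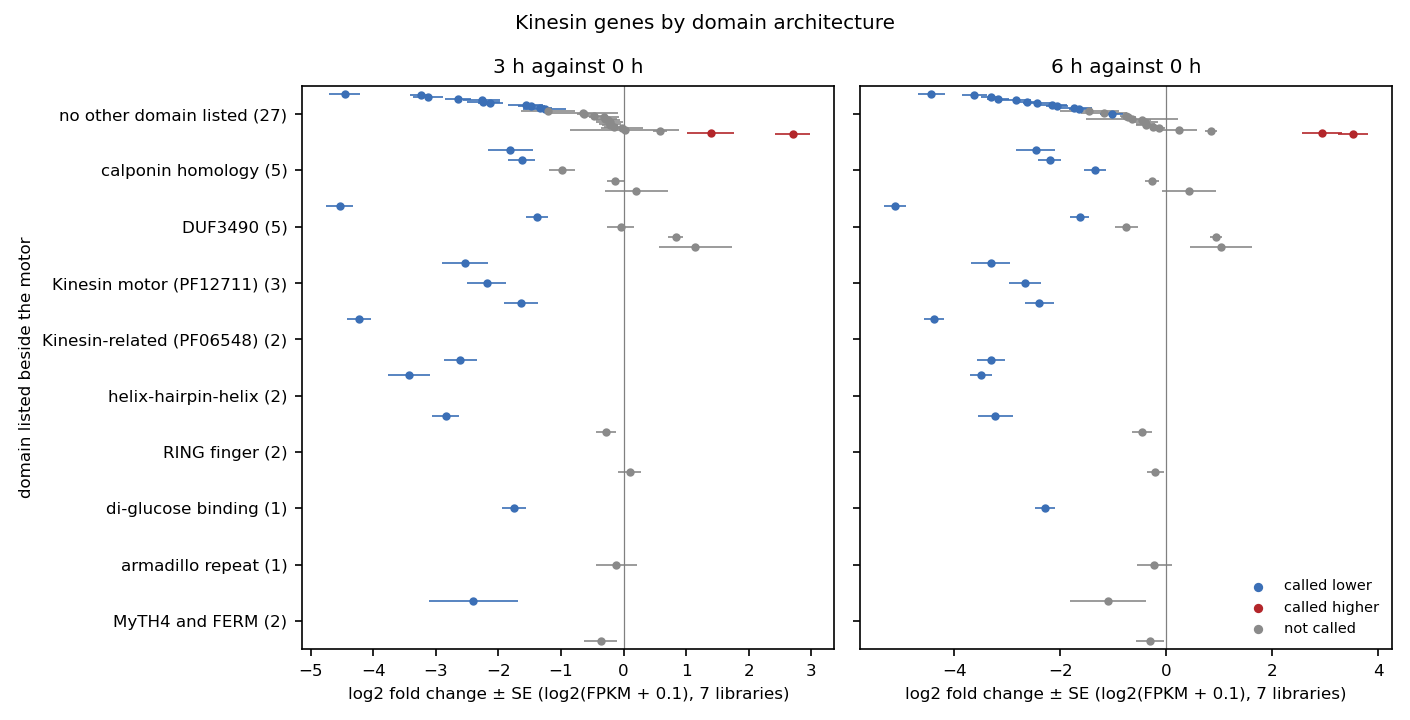
Points are the log2 fold changes of the 50 tested kinesins with their standard errors (limma, 7 libraries) at 3 h (left) and 6 h (right), in rows by the domain listed beside the motor. Blue points were called lower, red points higher and grey points neither. Every gene in the rows for PF12711, PF06548 and helix-hairpin-helix lies below -1.6 in both panels, and both red points are in the row with no other domain.

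Tubulins did not move together. Of 16 genes of the family, 1 was lower and 3 were higher at 3 h, and 3 were lower and 3 were higher at 6 h. Of all genes, 8.29% were lower and 10.0% higher at 3 h, and 10.0% and 12.2% at 6 h. The tubulin counts are small and were not tested against these shares. The median log2 fold change was -0.02 at 3 h, a value that lay between -0.10 and 0.07 when single libraries were left out and was above 0 when scaled per counted fragment (0.05) or by quantiles (0.02), and it was -0.29 at 6 h. All called genes were among the 13 tubulins. Tubulin genes are similar to each other, and how fragments shared between similar genes were counted is not given in the sources used here, so the split between single tubulin genes is uncertain.

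CsaV3_3G034310 (chromosome 3, 29143202 to 29145187, plus strand) was the tubulin that fell most, from 397, 358 and 361 FPKM in HT0h to 109 and 161 in HT3h and 107 and 96.4 in HT6h. Its log2 changes were -1.49 ± 0.20 and -1.87 ± 0.20 (limma adjusted p 0.0023 and 0.00086). CsaV3_1G043560 had means of 25.2, 15.1 and 11.5 FPKM and was called at 6 h alone (log2 change -1.12 ± 0.12, limma adjusted p 0.00075). CsaV3_5G002840 was also called at 6 h alone, with 15.9, 13.9 and 9.09 FPKM in HT0h and 7.05 and 4.66 in HT6h. Its log2 change of -1.12 ± 0.29 (limma adjusted p 0.022) was not called without HT0h_1, HT0h_2 or HT6h_3 (limma adjusted p 0.065, 0.068 and 0.13). Scaled per counted fragment, the changes of CsaV3_1G043560 and CsaV3_5G002840 were -0.93 each and not called.

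The opposite course was taken by CsaV3_3G043190 (chromosome 3, 35060495 to 35064079, minus strand). It went from 165, 161 and 124 FPKM in HT0h to 639 and 424 in HT3h and 797 and 482 in HT6h. It was 3.54-fold higher at 3 h and 4.26-fold higher at 6 h, with log2 changes of 1.805 ± 0.30 and 2.06 ± 0.30 (limma adjusted p 0.0050 and 0.0026). At 0 h its mean of 150 FPKM was below the 372 FPKM of CsaV3_3G034310, and at 6 h its mean of 640 FPKM was above that gene's 102 FPKM, a reversal of order seen in each heated library. Both genes were picked for a large rise or fall, so the reversal is no further support.

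CsaV3_7G007680 went from 5.95, 3.52 and 3.99 FPKM in HT0h to 32.4 and 27.8 in HT3h and 25.7 and 36.7 in HT6h, with log2 changes of 2.75 ± 0.26 and 2.78 ± 0.26 (limma adjusted p 0.00069 and 0.00053). CsaV3_1G007130 went from 1.26, 1.07 and 0.753 FPKM to 6.50 and 4.08 in HT3h and 6.85 and 1.89 in HT6h. Although its heated libraries did not overlap with HT0h, as the rule for named genes required, its log2 changes of 2.25 ± 0.54 and 1.75 ± 0.54 had limma adjusted p of 0.019 and 0.040. The change at 3 h was not called without HT0h_2 or HT0h_3 (limma adjusted p 0.0505 and 0.058), nor without HT3h_1. The change at 6 h was not called without HT0h_1, HT0h_2 or HT0h_3 (limma adjusted p 0.068, 0.086 and 0.11), nor without HT6h_1. The call at 6 h was also lost with a pseudocount of 1, by quantiles, with voom and with no mean-variance trend.

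CsaV3_4G000060, the most abundant cell division gene, was not called. It had 1350, 1254 and 1285 FPKM in HT0h, 921 and 954 in HT3h, and 953 and 745 in HT6h, with log2 changes of -0.47 ± 0.33 and -0.62 ± 0.33 (limma adjusted p 0.31 and 0.18). CsaV3_4G025920, another of the 3 tubulins of highest mean, was not called either and had means of 468, 480 and 370 FPKM. None of the 3 FtsZ genes was called, and their means were 77.7, 76.4 and 53.2 FPKM for CsaV3_3G037240, 47.0, 44.1 and 41.7 for CsaV3_6G040670 and 87.2, 104 and 91.5 for CsaV3_3G004580.

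**Figure D4:**
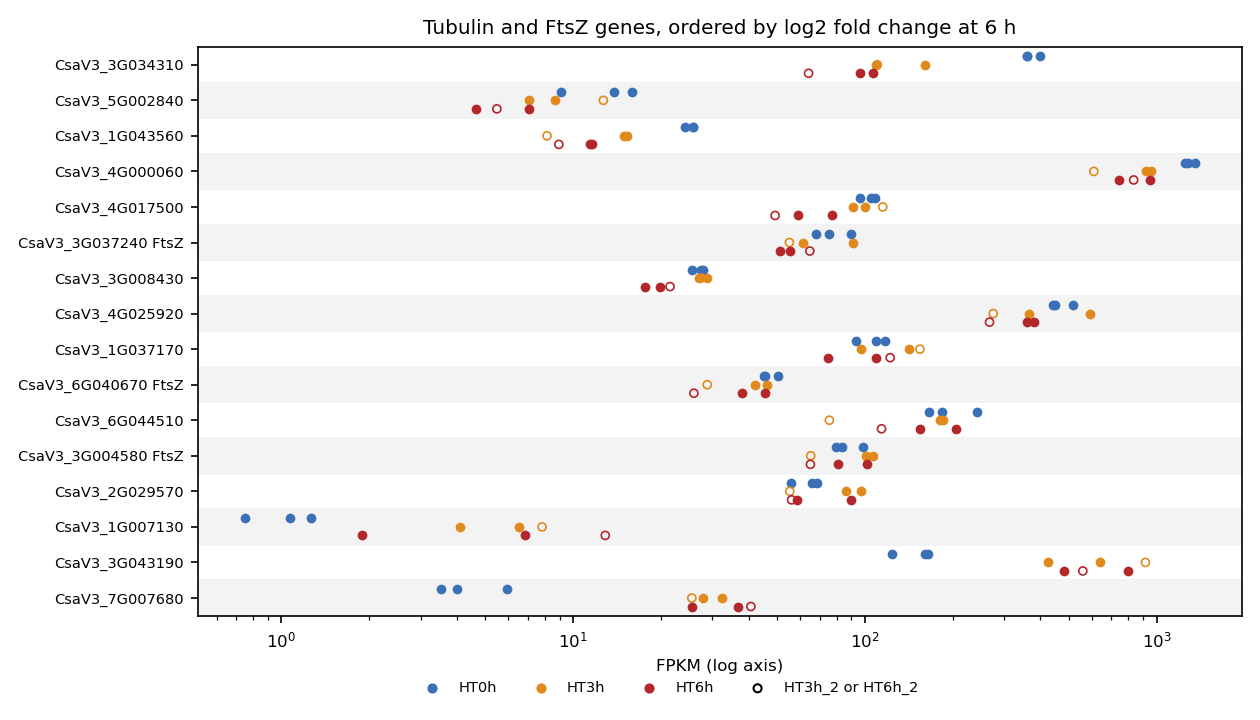
The FPKM of the 16 tubulin and FtsZ genes in each of the 9 libraries is drawn on a log axis, with rows from the lowest to the highest log2 fold change at 6 h. In the top row, CsaV3_3G034310, the HT0h points lie to the right of the heated points, and in the lowest 3 rows they lie to the left, while most other rows overlap.

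All 6 MCM genes had lower mean levels in heated leaves, but the heated libraries of a time point differed from each other. At 3 h 3 of the 6 were called lower, beside 8.29% of all genes, and at 6 h all 6 were, beside 10.0%. The median log2 fold changes were -1.96 and -2.51. Summed over the 6 genes, the FPKM was 158, 132 and 151 in HT0h, 20.3 in HT3h_1 and 72.4 in HT3h_3, and 17.7 in HT6h_1 and 38.4 in HT6h_3. All 4 heated sums were below all HT0h sums. HT3h_2 and HT6h_2 were lower still, at 4.62 and 7.64.

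Between the heated libraries, HT3h_3 was higher than HT3h_1 for 6 of 6 MCM genes, at a median ratio of 3.73, whereas the median ratio was 0.965 over the kinesins and 1.06 over the cyclins. HT6h_3 was likewise above HT6h_1 for 6 of 6 MCM genes, at a median ratio of 2.11. HT3h_3 and HT6h_3 were also the libraries with the lowest chlorophyll a/b binding sums of their groups, and the part of this in the MCM values was not tested.

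CsaV3_6G051630 (chromosome 6, 30028617 to 30034805, plus strand) had 28.0, 22.4 and 27.1 FPKM in HT0h, 2.46 and 9.75 in HT3h, and 1.83 and 4.90 in HT6h. Its log2 changes of -2.36 ± 0.60 and -3.05 ± 0.60 were the largest of the MCM genes (limma adjusted p 0.022 and 0.0074). CsaV3_2G003500 had 24.4, 20.1 and 22.3 FPKM in HT0h, 2.15 and 8.93 in HT3h and 2.37 and 4.21 in HT6h, with changes of -2.31 ± 0.54 and -2.77 ± 0.54 (limma adjusted p 0.018 and 0.0076). CsaV3_7G029940 went from a mean of 31.1 to 8.25 and 5.07 FPKM, with changes of -2.18 ± 0.51 and -2.65 ± 0.51 (limma adjusted p 0.017 and 0.0071). In these 3 genes no heated library of the tests reached the level of any HT0h library, as the rule for named genes required.

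Called at 6 h alone were CsaV3_6G053180 with means of 28.9, 11.4 and 6.07 FPKM, CsaV3_7G000210 with 32.9, 11.6 and 7.35 FPKM and CsaV3_7G006750 with 6.26, 3.45 and 2.93 FPKM. At 3 h CsaV3_6G053180 and CsaV3_7G000210 changed by -1.63 and -1.75 on the log2 scale. The MCM genes not called at 3 h had a limma adjusted p above the threshold (0.055 to 0.070), and CsaV3_7G006750 missed the fold threshold as well. CsaV3_7G006750, the only MCM gene without the N-terminal MCM domain PF14551, was the lowest at 0 h and changed least, by -0.90 ± 0.30 at 3 h and -1.06 ± 0.30 at 6 h (limma adjusted p 0.059 and 0.031). It is outside the rule for named genes and was named after its values were seen. In HT3h_2 and HT6h_2 this gene stood at 1.57 and 2.76 FPKM, while the other 5 MCM genes stood at 0.319 to 0.862 and 0.628 to 1.34 FPKM.

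The MCM calls depended on single libraries. The count of lower MCM genes at 3 h was 0 without HT0h_1 and 0 without HT0h_3, 6 without HT3h_3, and 4 with all 9 libraries. At 6 h it was 3 without HT0h_3, 0 without HT6h_1 and 6 with all 9 libraries. Without HT6h_1 the median log2 fold change at 6 h was -1.97, and without HT3h_1 that at 3 h was -1.05.

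**Figure D5:**
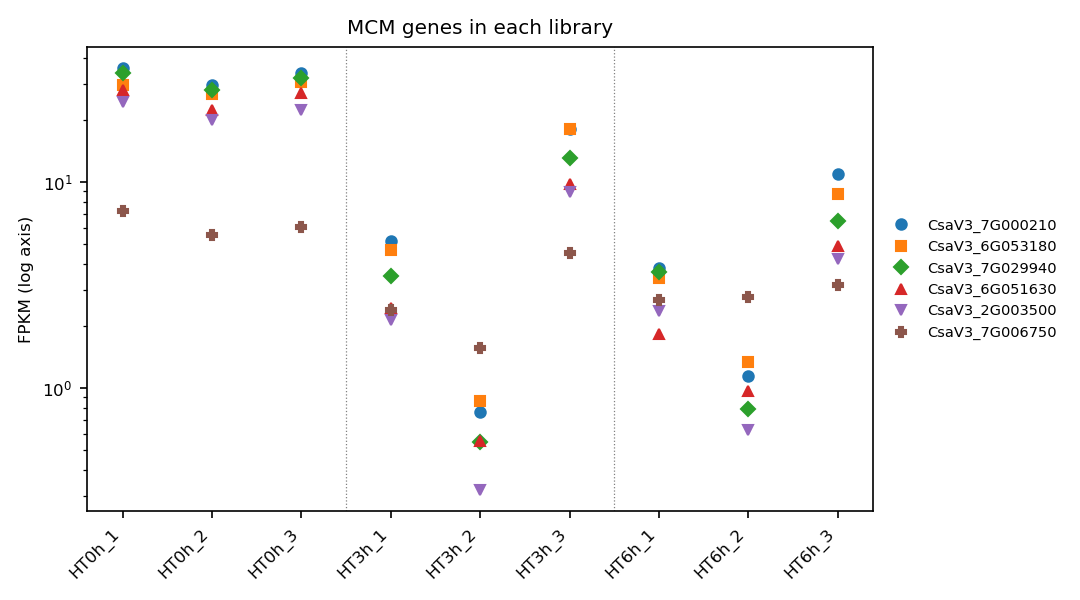
The FPKM of the 6 MCM genes in each library is drawn on a log axis, and dotted lines separate the 3 time points. Within HT3h and within HT6h the genes shift together from library to library, lowest in replicate 2 and highest in replicate 3, except CsaV3_7G006750 (brown), which varies least.

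Other genes of the same processes were counted by lists of Pfam domains, with no test against all genes. Of all genes, 8.29% were lower and 10.0% higher at 3 h, and 10.0% and 12.2% at 6 h. Of 23 tested genes of DNA replication, 15 were lower at 3 h and 16 at 6 h and none was higher, with median log2 fold changes of -1.56 and -1.96. Without HT3h_1 the median at 3 h was -0.95 and 10 genes of DNA replication were lower, and without HT3h_3 it was -1.91 and 18 were lower. At 6 h 11 were lower without HT6h_1 and 18 without HT6h_3. CsaV3_7G026150, described as CDC45-like, a partner of the MCM ring in the active helicase, fell from a mean of 10.8 FPKM to 0.517 and 0.482 (log2 change -4.18 ± 0.32 and -4.22 ± 0.32, limma adjusted p 0.00035 and 0.00026). CsaV3_2G010800, described as subunit 6 of the origin recognition complex, fell from 27.5 to 2.98 and 1.87 FPKM (log2 change -3.41 ± 0.64 and -4.08 ± 0.64, limma adjusted p 0.0074 and 0.0032). The genes described as subunits 2, 3 and 4 of that complex were not called at either time. Their log2 changes were -1.95, -0.30 and 0.41 at 3 h and -2.07, -1.20 and 0.27 at 6 h. The summed FPKM of this list was 382 to 443 in HT0h, 91.2 in HT3h_1 and 169 in HT3h_3, so that HT3h_3 was again the higher library, for 21 of 23 genes.

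Of 25 tested genes with domains of other microtubule proteins, 11 were lower and 1 was higher at each time. CsaV3_7G005850 and CsaV3_5G038450, both with the TPX2 domain of a spindle assembly factor, fell from 25.4 to 0.658 FPKM and from 30.7 to 1.09 FPKM at 6 h, by 5.06 ± 0.27 and 4.76 ± 0.31 on the log2 scale (limma adjusted p 7.6e-05 and 0.00014). CsaV3_5G005380, 1 of 5 genes with the domain of the MAP65 microtubule bundlers, fell from 26.9 to 0.932 FPKM, while CsaV3_5G017120 of that family was not called at 40.1, 50.7 and 54.5 FPKM. CsaV3_3G038240, with a TPX2 domain, was higher at both times, with means of 13.1, 31.7 and 29.3 FPKM, but not without HT3h_1 at 3 h (log2 change 0.97) nor without HT6h_1 at 6 h (0.92).

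Of 13 tested genes of condensin, cohesin and other chromosome structure proteins, 2 were lower at 3 h (beside 8.29% of all genes) and 7 at 6 h (beside 10.0%), and none was higher. Leaving out single libraries gave 1 to 6 of these at 3 h, the most without HT3h_3, and 2 to 8 at 6 h, with 2 without HT0h_1, HT0h_3 or HT6h_1 and 4 without HT0h_2. With all 9 libraries 5 were lower at 3 h. Among 19 tested cell cycle regulators, 6 were lower at 3 h and none was higher. At 6 h 7 were lower and 2 were higher, beside 10.0% and 12.2% of all genes, so the higher ones were near the share of all genes. Without HT3h_3, 2 regulators were higher at 3 h, and 1 was higher at 6 h without HT6h_1 or without HT6h_3. The HORMA domain gene CsaV3_5G030550 fell from 31.2 to 2.37 and 2.20 FPKM. Genes of cyclin-dependent kinase inhibitors, which hold back the cycle, went both ways at 6 h, since CsaV3_7G008680 rose from 5.86 to 15.5 FPKM (log2 change 1.40 ± 0.30, limma adjusted p 0.010) and CsaV3_7G025920 fell from 20.6 to 6.00 FPKM (-1.79 ± 0.26, limma adjusted p 0.0026). The other inhibitor genes, CsaV3_2G011460, CsaV3_3G011030 and CsaV3_3G029910, were not called at 6 h (log2 changes 0.45, 0.39 and -1.09). The rise of CsaV3_7G008680 at 6 h was not called without HT6h_1, and its log2 change at 3 h was 1.20 without HT3h_3. Each of these fits leaves 1 library in the heated group. The retinoblastoma gene CsaV3_5G036930, whose product restrains entry into DNA synthesis, was not called, with means of 23.1, 30.6 and 22.7 FPKM. The genes of these lists were named after their values were seen.

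Between 3 h and 6 h no cell division gene was called in either direction, beside 0.0876% of all genes called higher and 0.113% called lower at 6 h, and likewise with all 9 libraries, where 0.175% and 0.200% of all genes were called. At an unadjusted p under 0.05 limma gave 22 of the 103 genes. The share of all genes under that p is not given here, so the count is a description only. The voom fit of limma on the recovered fragments also called 0. Of the 103 genes, 76 had a lower level at 6 h than at 3 h by the fitted log2 change, or 73.8%, beside 51.6% of all genes, a count of directions with no test. They included 37 of 50 kinesins and 6 of 6 MCM genes. With all 9 libraries it was 63 of 103, with 29 kinesins and 5 MCM genes, and without HT3h_3 it was 0 of 6 MCM genes. The shares of all genes beside these later counts are not given here.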

How the data were processed

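RNA-seq tables of 9 leaf libraries (3 each of HT0h, HT3h and HT6h) were used. Per library, the authors deposited a table of FPKM with the length, position and Pfam domains of 24880 genes. The submitters' processing notes name CASAVA 1.8, HISAT2 2.0.5, StringTie 1.3.3b and featureCounts 1.5.0-p3, and the gene identifiers are of the cucumber genome v3 (CsaV3). For strandedness and the counting of fragments shared between genes, the setting is not given in the sources used here. FPKM times gene length gave whole fragments for 100% of values (within 0.02 of a fragment). The depth behind the FPKM was the geometric mean of the library totals times a median-of-ratios size factor (0.901 to 1.15) and not each library's own total.

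limma 3.58.1 in R 4.3.3 was fitted to log2(FPKM + 0.1), which understates changes of low genes, with the 3 time points in 1 model, moderation by a trend of variance on mean, and 4 residual degrees of freedom. The filter kept genes whose FPKM averaged at least 0.1. p-values were Benjamini-Hochberg adjusted over all genes, and calls needed an adjusted p up to 0.05 and a log2 fold change of at least 1 in size. The study's text gives these thresholds and names no test for these libraries. In simulated data, 76.5% of 200 genes with a log2 change of 2 at 6 h against 0 h were called among 19330 genes. The 200 were drawn from genes averaging at least 50 fragments, so this rate does not cover genes with fewer. p-values measure the spread between these libraries only.

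Alternatives were all 9 libraries, a replicate block, pseudocounts of 1 and 0.01, no filter and a mean of 1 FPKM, scaling per counted fragment, quantile normalization, only the groups compared, voom on recovered fragments, no trend, and leaving out each library. Leaving out a heated library of the tests left 1 library in that group. The spread in those fits came from the other groups, so their calls and adjusted p only describe dependence on that library. Within each group no library was a copy of another (chi-square per degree of freedom 20.4 or more). This value was 20.4 to 25.7 between HT0h libraries, 132 between HT3h_1 and HT3h_3, and 52.7 between HT6h_1 and HT6h_3. The heated libraries of the tests thus differed more than the HT0h libraries, while the fit and the simulated data take 1 spread for all groups. Members and lists were chosen with earlier results of these data known. Named were, per family and comparison with 0 h, the 4 largest rises and falls among called genes with a mean of 1 FPKM or more and no overlap with HT0h, and the 3 genes of highest mean; other genes are examples of a domain or list.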

Additional observations from a re-analysis of the deposited data

Results flagged for a closer look

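HT3h_2 and HT6h_2 were not in the tests, and the 7 cell division genes called higher stood above every HT0h library in both of them. These 7 genes had been called against the same HT0h libraries. The share of all genes called higher for which this holds was not computed, so the values are a description only. For the cyclins, CsaV3_6G038250 had 143.5 and 189.9 FPKM in HT3h_2 and HT6h_2 and CsaV3_2G030100 had 21.8 and 14.98 FPKM. For the kinesins, the model without a CsaV3 identifier on chromosome 1 (19240975 to 19243380) had 7.06 and 15.4 FPKM and CsaV3_3G039730 had 2.47 and 5.59 FPKM. For the tubulins, CsaV3_3G043190 had 916 and 559 FPKM, CsaV3_7G007680 had 25.5 and 40.7 FPKM and CsaV3_1G007130 had 7.83 and 12.9 FPKM.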

How the results depend on the processing

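None of the called values of named genes changed sign under the 19 alternatives. The total counts of cell division genes called at 3 h and at 6 h against 0 h stayed within 1.5 times of those given. Counts of single families moved more, and no MCM call was kept under all 19 alternatives. Of the 62 values of named genes, 21 crossed a threshold under at least 1 alternative, in 46 cases to a weaker and in 15 to a stronger result. With all 9 libraries the median log2 fold change at 3 h was -1.22 for kinesins and -3.11 for MCM genes, and at 6 h -3.30 for MCM genes. The replicate block over all 9 libraries gave the same medians, -1.22, -3.11 and -3.30, and 42 and 47 lower genes at 3 h and 6 h; over 7 libraries it gave 34 and 42, and 6 and 8 higher genes. For replicates 1, 2 and 3, deviations from the group means correlated at 0.03, 0.38 and 0.57 between HT3h and HT6h, while same-numbered pairs with HT0h gave -0.28 to 0.05, and 4 of the 9 libraries correlated best with their own number. As not every pair was over 0.1, the numbers were not taken to pair the samples. With the block over 9 libraries 6 MCM genes were lower at 3 h. The kinesin median at 3 h was -0.71 with a pseudocount of 1, -0.98 with no filter and -1.26 with a mean of 1 FPKM or more. At 6 h it was -1.01 and -1.40 with pseudocounts of 1 and 0.01, -1.64 with a mean of 1 FPKM or more, -1.09 per counted fragment, -1.47 by quantiles and -1.40 with voom. Per counted fragment, which moved the median of all genes by 0.19 at 6 h, the cyclin median at 6 h was -0.41, 4 kinesins were higher in place of 2 and 1 tubulin lower in place of 3. Leaving out single libraries gave medians at 3 h of -0.57 to -0.24 for cyclins, -1.13 to -0.96 for kinesins and -2.87 to -1.05 for MCM genes, and at 6 h of -0.61 to -0.43, -1.37 to -1.25 and -3.06 to -1.97. Kinesins called higher at 3 h numbered 1 with a pseudocount of 1 or the block over 7 libraries, and 2 tubulins were lower at 3 h with all 9 libraries. The causes were not tested. Depth limits the members of low level, such as CsaV3_3G039730 with 27 to 42 fragments in HT0h.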

Other observations

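A few members outside the MCM family varied between heated libraries as the MCM genes did. At least 2-fold higher in replicate 3 than in replicate 1 at both 3 h and 6 h were 3 MCM genes, 3 cyclins and 1 kinesin, or 7 of the 103 genes (6.80%) beside 3.51% of all genes tested, a choice made after the values were seen and not tested. The cyclin CsaV3_6G045120 had 7.10, 5.63 and 6.52 FPKM in HT0h, 1.14 in HT3h_1 but 7.26 in HT3h_3, and 2.48 in HT6h_1 but 6.77 in HT6h_3, and so was at its HT0h level in HT3h_3 and HT6h_3 alone. It was not called (log2 changes -1.10 ± 0.73 and -0.62 ± 0.73) and stood at 0.461 and 0.727 FPKM in HT3h_2 and HT6h_2. The kinesin CsaV3_3G040260 had 7.46, 7.30 and 8.85 FPKM in HT0h, and 2.55 in HT3h_1 beside 9.64 in HT3h_3. The other cyclins were CsaV3_2G026360 and CsaV3_7G008040.

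Among the members, 2 pairs of kinesin genes lay next to each other on the same strand. CsaV3_4G022100 and CsaV3_4G022110, 534 bases apart on the minus strand, were both lower at both times, with means of 10.5, 3.49 and 2.40 FPKM and of 5.28, 1.45 and 0.904 FPKM. Only the second has a calponin homology domain listed beside the motor. CsaV3_3G000080 and a kinesin model without a CsaV3 identifier, 95 bases apart on the plus strand, were both low, at 0.132 to 1.44 and 0 to 0.236 FPKM. The rising kinesin without a CsaV3 identifier on chromosome 1 (19240975 to 19243380) has a gene length of 2406 bases, equal to its span, so its deposited model has no intron.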
